A study of Mus musculus with 30 samples.

Results

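Genes that build, bind, cut or protect the extracellular matrix were followed in 5 lines of βTC3 cells with and without activin B. The members were set by a rule on gene symbols, with earlier results of these data known, so their shares are no independent test. They were collagen chains (Col), laminin chains (Lama, Lamb, Lamc), thrombospondins and spondins with chondroadherin (Thbs, Spon, Chad) and integrin subunits (Itga, Itgb). Also included were the secreted proteases of the ADAMTS family with their protease-free ADAMTSL relatives, matrix metalloproteinases (Mmp) and tissue inhibitors of metalloproteinases (Timp). The members numbered 137 of the 39017 genes in the count table. Of these, 78 passed the filter on low counts and were tested, among 15627 genes in all, and 59 lay under the filter. The 78 were 27 of 44 collagen genes, 10 of 11 laminins, 5 of 7 thrombospondins and spondins, 12 of 18 integrin alpha and 5 of 8 integrin beta subunits, 11 of 24 ADAMTS and ADAMTSL genes, 6 of 21 MMPs and 2 of 4 TIMPs.

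βTC3 is an insulin-producing line from a mouse pancreatic islet tumour. The labels gave the plasmid of each line: PB-33 (control), PB-33 ALK7, PB-33 ALK7-DN (a dominant-negative form of the activin receptor ALK7), PB-31 ALK7-sh2 (sh2) and PB-31 ALK7-sh1/2 (sh1/2), the last pair holding hairpins against ALK7. Expression of ALK7 and ALK7-DN and the knock-down were inducible with doxycycline (DOX), and no line with PB-31 alone was among the samples, so hairpin and plasmid backbone cannot be told apart. DOX (1 µg/ml, 24 hours) was given to all cells, the controls included, and activin B (50 ng/ml, 24 hours) to one of each pair of groups, which made 10 groups of 3 libraries of polyadenylated RNA. Each group was 3 wells of 1 line, so the p-values measure the spread between these wells, which may be technical. Batch 2 held 6 libraries, those of ALK7-DN with activin B and of sh2 with DOX alone, and batch 1 held the other 24. In these 2 lines activin B and batch cannot be told apart.

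Activin B belongs to the TGF-β family of secreted ligands. It binds pairs of serine/threonine kinase receptors, of which ALK7 is a type I member, and these phosphorylate SMAD proteins that act on genes in the nucleus. Genes of the matrix are classic targets of this family in many tissues. In the islet, beta cells rest on a basement membrane of laminins and type IV collagen, much of it laid down by vessels, and hold on to it through integrins, each a pair of 1 alpha and 1 beta subunit.

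Library totals ran from 18904884 to 34740789 counts, and levels are given as CPM, a gene's counts scaled by the library total and TMM factors. Acvr1c, the gene for ALK7, was at 142 to 170 CPM with DOX alone in the control line and in those labelled ALK7 and ALK7-DN, so its counts show no added transcript in the latter 2, which are called here by their labels. It was at 46.1 to 81.3 CPM in both hairpin lines. Smad7, a standard target of activin signals, rose in all 5 lines, by 1.71 (sh1/2) to 2.92 (ALK7) on the log2 scale. The 13 beta cell markers checked were all at a mean of at least 1 CPM. Markers of fibroblasts, the main matrix-making cells of most tissues, summed to 0.225 to 1.34 CPM over 12 genes, none of them at 1 CPM.

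Some marker sums stood at other levels with activin B than without, a difference that was not tested. Over 11 exocrine and duct genes the sum was 14.5 to 29.2 CPM in the 15 libraries with DOX alone and 40.8 to 66.8 in the 15 with activin B. Most of this was Krt7, a keratin of duct epithelium, with a mean of 11.3 against 39.2 CPM in control, while the enzyme genes Prss1 and Amy2a2 were at 0 in all libraries and Krt19 reached at most 0.185 CPM. The beta cell sum was 21998 to 25535 CPM with DOX alone and 17366 to 21524 with activin B in 4 lines, and 14666 to 19737 against 16251 to 17964 in sh1/2. In control most of the fall was in Ins2 (10309 to 5381 CPM) and Ins1 (3422 to 2109). Of its other markers, Iapp, Neurod1, Isl1, G6pc2, Chga and Chgb had higher means with activin B. Pdx1, Nkx6-1, Nkx2-2, Mafa and Slc2a2 had lower ones. The hormone genes of other islet cells summed to 50.6 to 62.7 against 8.68 to 20.04 CPM in the 4 lines other than sh1/2 and to 163 to 175 against 36.1 to 36.8 in sh1/2. Most of this was Gcg (52.8 against 14.5 CPM in control). The mean of Ppy was higher with activin B in all 5 lines (0.144 against 0.803 in control). Sst was higher in ALK7 and sh1/2 and lower in the other lines, and Pyy and Ghrl reached at most 0.168 and 0.295 CPM. Endothelial markers overlapped, at 8.71 to 11.4 against 8.57 to 12.9 CPM. These sums run beside every change with activin B given for the members, and their part in those changes was not tested.

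Libraries also differed in how their deviations from the group mean followed the GC content of genes: the rank correlation across genes was -0.69 in replicate 2 of control with activin B, and -0.49, 0.71 and -0.60 in replicates 1 to 3 of sh1/2 with DOX alone. It ran from -0.54 to 0.63 in the other 26 libraries, so the skew is not limited to these. Values without 3 of the 4 (the negative ones, called the GC-skewed libraries here) stand beside the results in sh1/2 that rest on them. Leaving these out keeps 1 library of sh1/2 with DOX alone, replicate 2, whose correlation of 0.71 was the largest of all. Every sh1/2 value without the 3 therefore rests on that 1 library, and its adjusted p and calls carry that limit.

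In 4 libraries, each replicate 1 of its group, the levels of Thbs1, Adamts1 and Timp3 stood apart. Thbs1, a thrombospondin that activates latent TGF-β, was at 5.22 CPM in ALK7-DN with DOX alone, 5.59 in sh2 with activin B, 5.17 in sh1/2 with DOX alone and 4.03 in sh1/2 with activin B. The other 26 libraries held at most 0.177 CPM. Adamts1 and Timp3 were also higher in each of these 4 libraries than in all others, at 0.779 to 0.910 and 0.433 to 1.95 CPM. The same held for 73 genes of the table in all, among them the matrix genes Fn1 (3.15 to 8.87 CPM against at most 1.15) and Tnc (1.16 to 2.69 against at most 0.140) and the epithelial genes Krt17, Dsp and Epcam.

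The 4 libraries belong to both treatments, and the fitted changes of these members ran in both directions. Thbs1 had a log2 fold change of -5.27 in ALK7-DN (adjusted p = 0.107), 5.41 in sh2 (adjusted p = 0.107) and -0.38 in sh1/2. None of these 3 members was called in any line. Without the 4 libraries the Thbs1 values were -1.22, 1.11 and 0.39. In the groups that hold these libraries, fibroblast markers summed to at most 1.34 CPM in sh1/2 and 1.205 in ALK7-DN with DOX alone. With activin B they reached 0.847 CPM in sh2 and 0.503 in sh1/2. The other groups reached at most 0.731 CPM. The source of these reads was not tested.

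**Figure D1:**
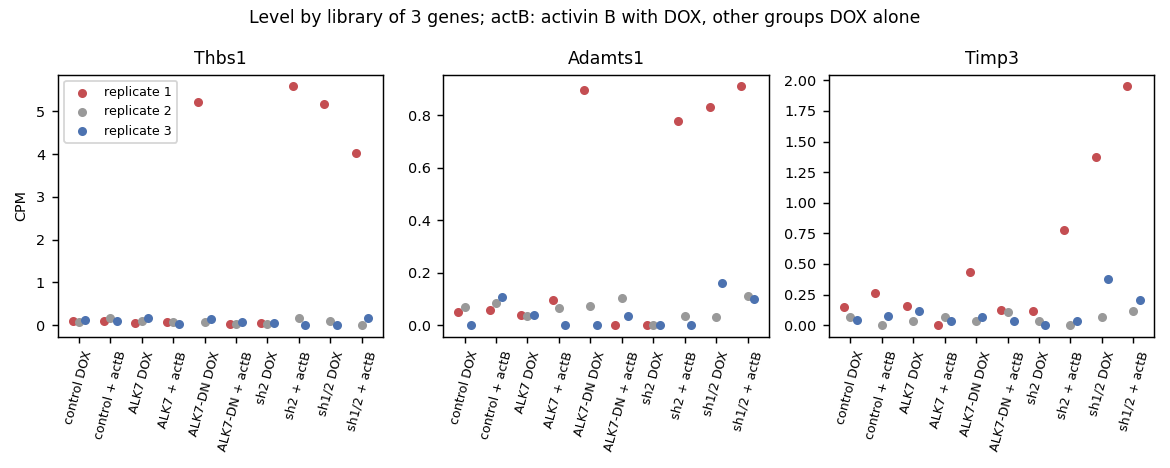
Level in CPM of Thbs1, Adamts1 and Timp3 in each library, by group; red, grey and blue points are replicates 1, 2 and 3. In 4 groups replicate 1 stands alone, with Thbs1 at 4.03 to 5.59 CPM against at most 0.177 elsewhere.

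Genes were compared with each other per kilobase of exon. Itgb1, the beta subunit shared by most laminin and collagen receptors, had the highest level of all members, 110 CPM per kb, and Itgb5 followed with 22.5. Their partners Itgav (14), Itga6 (10.7), a laminin receptor subunit, and Itga3 (4.72 CPM per kb), which also serves laminin binding, were the highest alpha subunits. Among matrix genes the highest was Col6a5, a chain of type VI collagen, at 14.4 CPM per kb, then Lamc1, the gamma chain of most laminins, at 8.78. Spon2 (7.91), a secreted matrix protein that integrins bind, Thbs3 (4.96), a thrombospondin, and the membrane-bound protease gene Mmp24 (5.01 CPM per kb) came next.

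**Figure D2:**
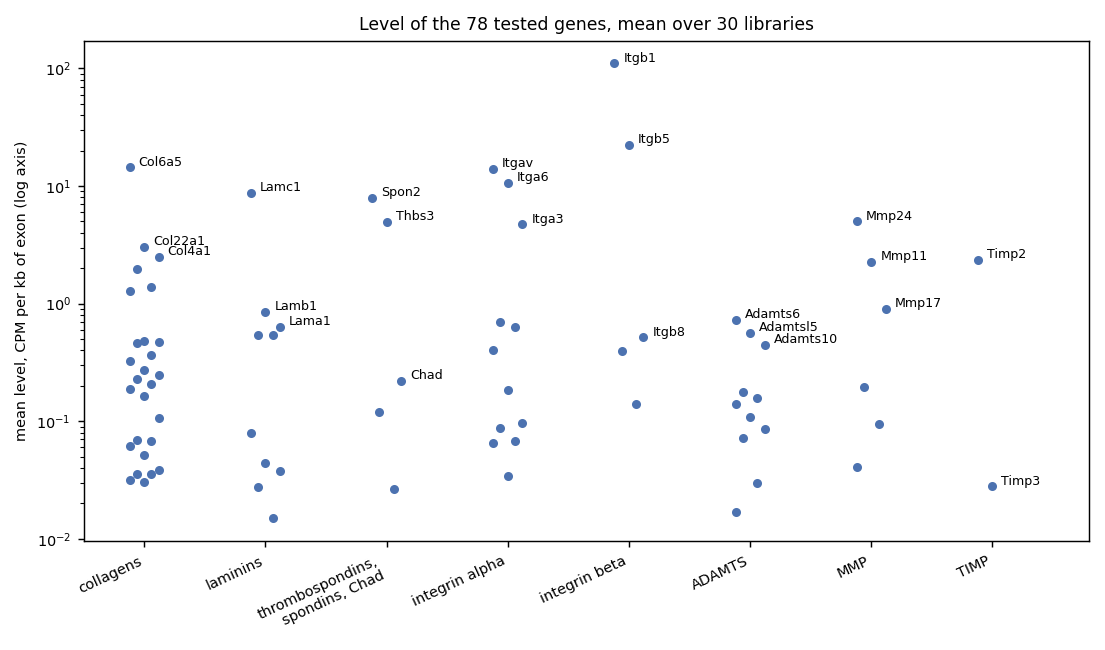
Mean level of each of the 78 tested genes over the 30 libraries, in CPM per kb of exon on a log axis, by family; each point is a gene and the 3 highest of a family are named. Itgb1 stands highest, at 110 CPM per kb.

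Several matrix complexes were present only in part. Col6a3, which in tissues assembles with Col6a1 and Col6a2, was at a mean of 23.4 CPM, but Col6a1 had 22 counts and Col6a2 106 counts over all 30 libraries, both under the filter. The network chain Col4a1 was at 18.7 CPM and its usual partner Col4a2 at 0.46 CPM. These 2 genes lie head to head on opposite strands with 22 shared exon bases. Of the fibril-forming chains, Col1a1 did not pass 2.15 CPM in any library and Col3a1 had 6 counts in all, while Col27a1 was at a mean of 16.7 CPM and Col11a2 at 9.59. The 59 genes under the filter had mean levels of 0 to 0.242 CPM, the highest being Mmp23, and 2 of them, Mmp3 and Mmp27, had no count. They took in Itgb3 (81 counts) and Itgb6 (17 counts), both partners of Itgav, the gelatinases Mmp2 (25) and Mmp9 (153 counts), Timp1 (96) and Timp4 (1 count).

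Activin B raised more of the members than it lowered in every line. In the control line 17 members rose and 6 fell, against 20.3% of all genes tested called in either direction (10.7% higher and 9.66% lower). The counts were 28 and 10 in the line labelled ALK7 (25.3% of all genes called, 13% higher and 12.3% lower), 18 and 7 in that labelled ALK7-DN (16.1%, 8.48% higher and 7.62% lower), 19 and 7 in sh2 (19.6%, 10.7% higher and 8.91% lower) and 23 and 5 in sh1/2 (36.6%, 17.5% higher and 19.1% lower). The median log2 fold change of the 78 was 0.05 in control, 0.38 in ALK7, -0.06 in ALK7-DN, 0.06 in sh2 and 0.23 in sh1/2, and that of all genes tested lay between -0.01 and 0.00. In sh1/2 the count of 28 became 15 without the 3 GC-skewed libraries, 18 without the 4 with high Thbs1 and 14 when only the 2 groups compared were fitted. The shares of all genes called under these other settings are not given here. A change shared by all genes therefore cannot be told from one of the members. As these are bulk samples, a change in the share of cells that express a gene and a change per cell cannot be told apart.

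Across lines, 13 members rose in all 5 (16.7% of 78, against 4.33% of all genes tested) and 2 fell in all 5 (2.56%, against 3.54%). The 13 were Spon2, Lamb1, Adamts6, Adamts7, Lama1, Chad, Thbs3, Mmp11, Itgb7, Col25a1, Itga1, Itgav and Itgb5, and the 2 were Itgb8 and Col14a1. Another 33 were called in 1 to 4 lines, and 30 in none (38.5%, against 46.1% of all genes tested). Col16a1 was the one member called in both directions: it rose by 0.78 in ALK7 and fell by 0.68 in sh2 on the log2 scale, the latter with an adjusted p of 0.0379 that became 0.137 without the 4 libraries with high Thbs1. Of the 13 genes raised in all lines, 9 had their largest fold change in the line labelled ALK7 and 7 their smallest in sh1/2. Among the 677 genes of the whole table raised in all 5 lines, those counts were 291 and 339.

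**Figure D3:**
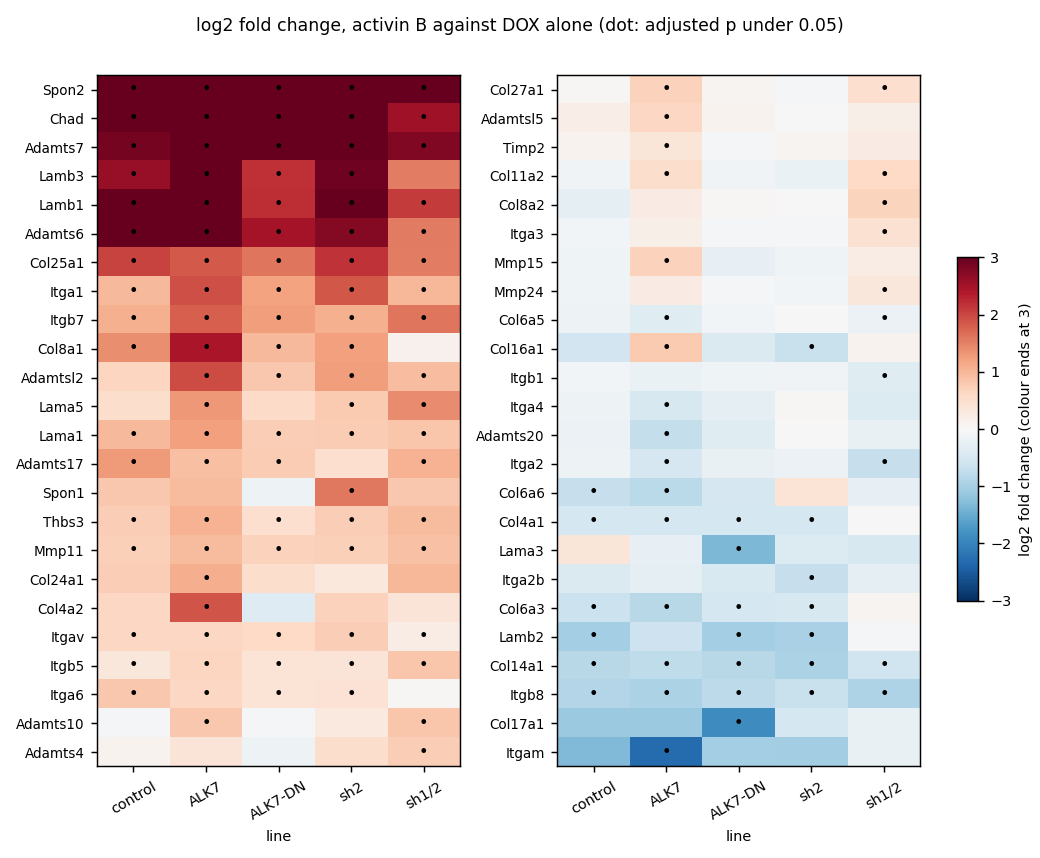
Log2 fold change with activin B against DOX alone for the 48 members called in at least 1 line, ordered by their mean over the 5 lines; red is higher and blue lower with activin B, the colour ends at 3, and a dot marks an adjusted p under 0.05. The top rows (Spon2, Chad, Adamts7) are dark red in every line and Itgb8 and Col14a1 are blue in every line.

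Among secreted matrix proteins, Spon2 (ENSMUSG00000037379, chr5:33198184-33218455, minus strand, mm10) had the largest fold change in the control line among members at a mean of 1 CPM or more. Its levels were 2.16, 1.88 and 1.69 CPM in the 3 control libraries with DOX alone and 53.5, 36.4 and 44.4 CPM with activin B. In the line labelled ALK7 they went from 2.49, 2.41 and 2.32 to 89.3, 88.9 and 83.2 CPM, and in that labelled ALK7-DN from 2.07, 2.07 and 1.96 to 39.4, 38.3 and 35.0. In sh2 they were 2.04, 1.83 and 1.89 against 31.4, 34.2 and 39.7 CPM, and in sh1/2 1.01, 2.27 and 1.87 against 16.3, 18.0 and 21.7. No library with activin B came near a library without it. The fold changes were 23.5 in control, 36.1 in ALK7, 18.4 in ALK7-DN, 18.3 in sh2 and 10.8 in sh1/2, with adjusted p from 4.99e-17 to 3.92e-13.

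Thbs3 (ENSMUSG00000028047, chr3:89215180-89226837, plus strand), whose protein forms a ring of subunits in the matrix, rose in a narrower range. The control line had 14.5, 13.3 and 14.6 CPM with DOX alone and 26.5, 18.4 and 26.0 with activin B. The other lines had 14.3 to 28.4 CPM without and 18.5 to 47.0 with it, and within each line the 2 groups did not overlap. The log2 fold change was largest in ALK7 (1.04 ± 0.10, SE) and smallest in ALK7-DN (0.49 ± 0.10, adjusted p = 0.00107). Exons of Thbs3 share 318 bases with Mtx1 on the opposite strand (33.2 CPM), and since the strand setting of the counting is not known, the levels of both are uncertain. In ALK7-DN the fold change became 0.29 (adjusted p = 0.216) when a batch term taken from the hairpin lines was added. That term takes sh2 and sh1/2 to have the same activin B response, so a difference between their responses counts as batch. The response differed from control in 17.7% of all genes tested in sh1/2 and 0.0128% in sh2. The term therefore cannot tell batch from a difference between lines.

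Chad (chondroadherin, a small leucine-rich protein that binds collagen and integrins) went from almost no reads to a low level. With DOX alone its 15 libraries lay between 0 and 0.214 CPM, and with activin B between 0.366 and 1.05. In the control line the values were 0, 0 and 0.0423 against 0.582, 0.386 and 0.496 CPM, with an adjusted p of 0.000182. In no line did the groups overlap. Spon1, a relative of Spon2, was called in sh2 alone (1.57 ± 0.49, adjusted p = 0.0245) at no more than 0.637 CPM in any library.

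Laminins are trimers of an alpha, a beta and a gamma chain, and here an alpha and a beta chain rose while the main gamma chain was not called. Lamb1 (ENSMUSG00000002900, chr12:31265234-31329644, plus strand) was at 1.64, 1.67 and 1.86 CPM in the control libraries and at 13.9, 14.4 and 14.8 with activin B. The line labelled ALK7 had 2.88, 2.38 and 1.97 against 20.04, 20.1 and 22.6 CPM, and that labelled ALK7-DN 2.78, 2.58 and 3.04 against 13.4, 12.8 and 12.9. In sh2 the values were 2.04, 1.46 and 1.80 against 14.1, 14.1 and 14.5 CPM, and in sh1/2 1.92, 2.80 and 2.67 against 10.1, 10.7 and 10.5. The highest library without activin B, at 3.04 CPM, was thus far below the lowest with it. The fold changes were 8.31, 8.66, 4.65, 8.05 and 4.25 in that order of lines, with adjusted p from 9.01e-16 to 3.26e-12.

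Lama1, an alpha chain best known from embryonic basement membranes, rose by 0.75 (ALK7-DN) to 1.24 (ALK7). Its levels were 4.42, 5.44 and 5.71 against 10.8, 9.26 and 10.6 CPM in control, a log2 fold change of 0.97 ± 0.12 (SE). In the hairpin lines it was lower throughout, at 1.90 to 3.15 CPM with DOX alone and 3.29 to 4.75 with activin B, and still rose by 0.76 in sh2 and 0.83 in sh1/2. Lamc1 stood at 60.8 to 85.2 CPM over all 30 libraries, with overlapping groups in 3 of the 5 lines and adjusted p from 0.171 to 0.784. With the replicate number as a block it was called in ALK7 (0.18, adjusted p = 0.0157) and sh1/2 (0.17, adjusted p = 0.0164). These are 2 of the 3 lines in which wells of the same number all deviated together with r over 0.1. Lamc1 was also called in sh2 (0.18, adjusted p = 0.0195), where not all of them did.

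The remaining laminin chains differed from line to line. Lama5, the alpha chain of adult basement membranes, rose in ALK7 (1.31 ± 0.22), sh2 (0.79 ± 0.22) and sh1/2 (1.42 ± 0.22), and its control difference of 0.53 ± 0.22 missed the threshold with an adjusted p of 0.106. Lamb2, the beta chain that pairs with it in many mature membranes, fell by 1.02 in control, 1.02 in ALK7-DN and 0.98 in sh2. Its control libraries held 4.67, 3.03 and 4.23 CPM with DOX alone and 2.53, 1.11 and 2.12 with activin B. In sh1/2 it was at 3.87, 6.91 and 3.69 against 4.52, 4.75 and 4.74 CPM, a log2 difference of -0.06 with an adjusted p of 0.873. Without the 4 libraries with high Thbs1, the ALK7-DN value was -0.85 with an adjusted p of 0.0536. Lamb3, an epithelial beta chain, rose in 4 lines from at most 0.216 CPM to at most 1.60, and was not called in sh1/2.

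Promoter sequence is shown for Lamb1, for the integrin pair Itgav and Itgb5 that rose in all lines, and for Itgb8, the integrin that fell in all lines. Each runs from 250 bases before to 50 bases after the RefSeq start on GRCm38.p6, 5′ to 3′ on the gene's own strand, and capitals mark matches to 5 motifs on either strand. The motifs are CAGACA and GTCTAGAC (forms of the SMAD box), GGCGC and GGCCG (the GC-rich SMAD site) and TGANTCA (the AP-1 site), and overlapping matches run together.
Lamb1, chr12:31265043-31265342, plus strand: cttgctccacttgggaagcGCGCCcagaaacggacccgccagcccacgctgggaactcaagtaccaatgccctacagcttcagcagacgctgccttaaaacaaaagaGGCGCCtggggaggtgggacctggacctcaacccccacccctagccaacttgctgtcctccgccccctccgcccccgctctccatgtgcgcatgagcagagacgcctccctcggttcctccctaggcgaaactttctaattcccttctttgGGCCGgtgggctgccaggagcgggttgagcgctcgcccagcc
Itgav, chr2:83724147-83724446, plus strand: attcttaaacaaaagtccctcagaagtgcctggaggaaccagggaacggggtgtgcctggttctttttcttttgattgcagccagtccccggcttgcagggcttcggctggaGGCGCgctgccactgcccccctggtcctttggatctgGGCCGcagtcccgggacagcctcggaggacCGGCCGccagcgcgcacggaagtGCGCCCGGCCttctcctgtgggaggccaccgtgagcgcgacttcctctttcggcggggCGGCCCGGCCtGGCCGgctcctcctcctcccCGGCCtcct
Itgb5, chr16:33829415-33829714, plus strand: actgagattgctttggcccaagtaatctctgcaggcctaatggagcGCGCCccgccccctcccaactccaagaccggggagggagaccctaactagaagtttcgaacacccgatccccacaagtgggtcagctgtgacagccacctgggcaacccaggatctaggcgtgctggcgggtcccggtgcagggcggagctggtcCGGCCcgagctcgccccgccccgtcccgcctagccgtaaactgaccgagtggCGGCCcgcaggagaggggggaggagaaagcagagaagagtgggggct
Itgb8, chr12:119238227-119238526, minus strand: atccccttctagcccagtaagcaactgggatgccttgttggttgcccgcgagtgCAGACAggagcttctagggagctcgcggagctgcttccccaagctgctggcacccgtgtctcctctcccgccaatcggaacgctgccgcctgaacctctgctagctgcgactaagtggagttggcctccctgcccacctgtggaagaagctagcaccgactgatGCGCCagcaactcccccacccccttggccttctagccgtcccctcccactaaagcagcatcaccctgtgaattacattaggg

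Only the Itgb8 window among these 4 held CAGACA, 196 bases before the RefSeq start, and none held GTCTAGAC or TGANTCA. The whole Itgb8 window lies inside the GENCODE span of that gene given below, so GENCODE places its start further upstream. Of 32851 RefSeq promoters of this length, 21.0% held CAGACA, 0.213% GTCTAGAC and 7.81% TGANTCA. In the order printed, GGCGC was found 3, 2, 1 and 1 times and GGCCG 1, 8, 2 and 0 times, against 36.9% and 35.2% of promoters holding each. An entry was found for 96 of the 137 members. Spon2, Adamts6, Adamts7 and Lama1 were not among them.

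In the collagens, the largest family, 12 of the 27 tested were called in ALK7 and 6 in each other line. In the control line 2 rose and 4 fell (22.2%, against 20.3% of all genes called), in ALK7 7 rose and 5 fell (44.4%, against 25.3%), and in ALK7-DN and sh2 2 rose and 4 fell (22.2%, against 16.1% and 19.6%). In sh1/2 4 rose and 2 fell (22.2%, against 36.6%). Col14a1, a collagen that associates with the surface of fibrils, fell in all 5 lines, by 0.60 (sh1/2) to 0.94 (sh2). Its control libraries had 1.06, 1.71 and 2.11 CPM with DOX alone and 0.843, 0.814 and 1.10 with activin B, so that the groups overlapped. In sh1/2 it had 3.47, 3.52 and 4.22 against 2.18, 2.09 and 3.10 CPM, and the adjusted p of 0.0110 became 0.242 without the 3 GC-skewed libraries. Col25a1, a membrane-spanning collagen, rose in all 5 lines by 1.54 to 2.16 at no more than 1.51 CPM in any library. Its call in ALK7-DN (1.61, adjusted p = 0.00954) rested in part on replicate 1 with DOX alone: without it the value was 1.34 and the adjusted p 0.0648.

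The 2 well-expressed collagens that fell in 4 lines were Col6a3 (ENSMUSG00000048126, chr1:90765923-90843971, minus strand) and Col4a1 (ENSMUSG00000031502, chr8:11198423-11312826, minus strand). Col6a3 was at 25.1, 25.5 and 24.1 CPM in control with DOX alone and at 16.7, 14.8 and 16.5 with activin B. The line labelled ALK7 had 31.6, 36.1 and 32.8 against 19.6, 18.6 and 18.3 CPM, that labelled ALK7-DN 29.6, 34.0 and 30.1 against 21.0, 21.8 and 22.2, and sh2 26.4, 27.5 and 22.8 against 19.0, 18.8 and 17.3. In sh1/2 the groups overlapped, at 21.9, 22.4 and 20.2 against 24.1, 21.9 and 22.3 CPM. The log2 fold changes were -0.64, -0.83, -0.53 and -0.48 in the first 4 lines and 0.08 (adjusted p = 0.385) in sh1/2. Col4a1, a chain of the basement membrane network, fell by 0.52 to 0.53 in the same 4 lines. Its control libraries went from 21.8, 20.4 and 21.3 to 16.8, 13 and 13.9 CPM, while sh1/2 had 14, 20.5 and 14.2 against 16, 17.3 and 16.3 (adjusted p = 0.896).

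Col6a5, the most abundant collagen, fell in 2 lines. In ALK7 it went from 127, 124 and 129 to 97.2, 93.5 and 103 CPM (-0.37 ± 0.06, adjusted p = 4.09e-05). In sh1/2 it went from 147, 126 and 148 to 130, 119 and 122 CPM (-0.18, adjusted p = 0.0244), a value that was -0.02 (adjusted p = 0.932) without the 3 GC-skewed libraries. Col22a1, a collagen of tissue junctions, stood at 18.3 to 35.0 CPM over all libraries and was called in no line. Other settings called it in different directions. With the replicate block it was higher in sh1/2 (0.29, adjusted p = 0.00716) and lower in sh2 (-0.26, adjusted p = 0.0224), and with the batch term it was lower in ALK7-DN (-0.75, adjusted p = 0.0111). With GC correction and the block it was lower in control (-0.21, adjusted p = 0.00973), ALK7-DN (-0.21, adjusted p = 0.0110) and sh2 (-0.28, adjusted p = 0.00154) and higher in sh1/2 (0.16, adjusted p = 0.0412). Col8a1, a short-chain collagen of vessel and corneal membranes, rose in 4 lines by 0.97 to 2.44 and was not called in sh1/2 (0.14, adjusted p = 0.782). Col27a1, a fibril-type collagen of cartilage, rose in ALK7 (0.68) and sh1/2 (0.50) at 11.3 to 25 CPM over all libraries. Col6a6 fell in control (-0.69, adjusted p = 0.0424) and ALK7 (-0.80, adjusted p = 0.0228). Its control call ended under 5 other settings, with adjusted p up to 0.0890, and on leaving out any of 5 single libraries.

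**Figure D4:**
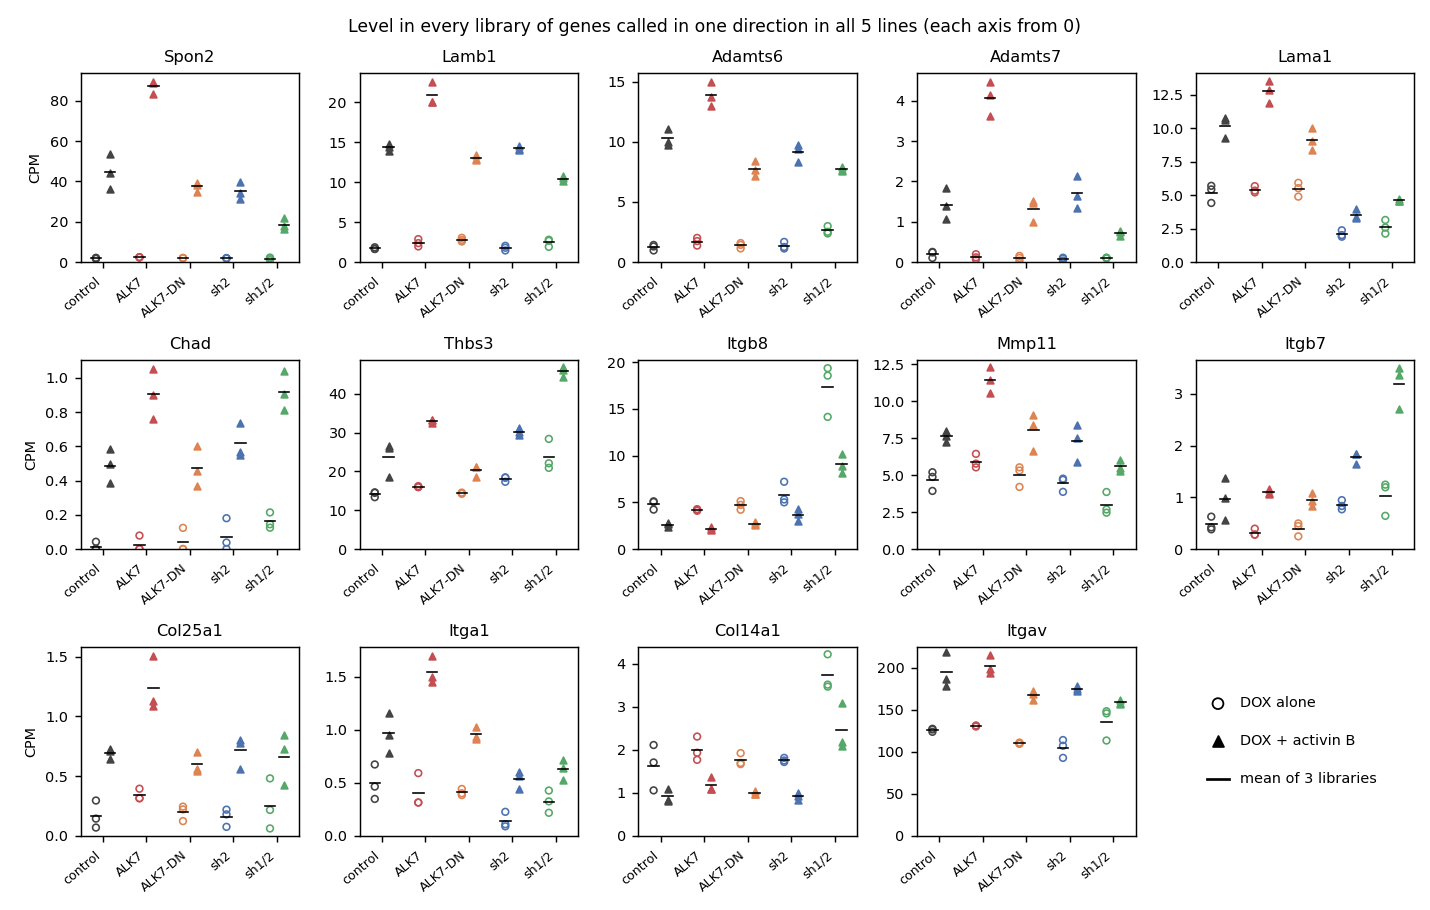
Level in CPM in each of the 30 libraries for 14 of the 15 members called in 1 direction in all 5 lines; open circles are DOX alone, triangles DOX with activin B, bars the mean of 3 libraries, and each axis starts at 0. Spon2 reaches 89.3 CPM with activin B in the line labelled ALK7, and Itgb8 in sh1/2 starts from 14.1 to 19.3 CPM, above every other line.

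Among the receptors, activin B moved the subunits that pair with alpha-v in opposite directions. Itgav (ENSMUSG00000027087, chr2:83724397-83806916, plus strand) encodes alpha-v, which binds vitronectin, fibronectin and latent TGF-β. Its control libraries were at 127, 124 and 126 CPM with DOX alone and at 187, 218 and 178 with activin B. The line labelled ALK7 had 131, 130 and 131 against 198, 193 and 215 CPM, that labelled ALK7-DN 110, 109 and 111 against 162, 168 and 172, and sh2 92.7, 107 and 114 against 173, 175 and 178. In these 4 lines the groups were far apart, with log2 fold changes of 0.61 to 0.74. In sh1/2 they were 146, 113 and 148 against 161, 157 and 158 CPM, a rise of 0.23 (adjusted p = 0.0303) whose adjusted p lay between 0.0589 and 0.184 on leaving out replicate 2 with DOX alone or any 1 library with activin B, and was 0.0804 without the 4 libraries with high Thbs1.

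Itgb5 (ENSMUSG00000022817, chr16:33829665-33949338, plus strand) makes the vitronectin receptor with alpha-v. It was at 74.4, 62.7 and 70.4 against 98.0, 71.9 and 93.1 CPM in control, where the groups overlapped. The ALK7 line had 73.7, 76.3 and 70.5 against 119, 118 and 110 CPM, and sh1/2 41.4, 59.8 and 40.5 against 76.1, 87.3 and 87.5. The log2 fold changes were 0.34 in control, 0.65 in ALK7, 0.40 in ALK7-DN, 0.38 in sh2 and 0.82 in sh1/2, with adjusted p up to 0.0378. Without the 4 libraries with high Thbs1 the sh2 call ended (adjusted p = 0.0554). The calls in control, ALK7-DN and sh2 each ended on leaving out any of 4 libraries, 1 at a time. The ALK7-DN value became -0.043 (adjusted p = 0.896) with the batch term, which takes the unlike sh2 and sh1/2 values (0.38 and 0.82) as 1 response.

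Itgb8 (ENSMUSG00000025321, chr12:119158022-119238802, minus strand), which with alpha-v activates latent TGF-β, fell in all 5 lines. Control libraries went from 5.10, 4.22 and 5.03 to 2.76, 2.66 and 2.37 CPM. The line labelled ALK7 went from 4.26, 4.20 and 4.09 to 2.10, 2.34 and 2.03 CPM, that labelled ALK7-DN from 4.20, 5.13 and 4.72 to 2.56, 2.70 and 2.93, and sh2 from 4.99, 5.30 and 7.19 to 4.29, 3.74 and 3.04. In sh1/2 the level was higher in both states, 19.3, 14.1 and 18.5 against 10.1, 8.15 and 8.92 CPM. No line had overlapping groups, and the log2 fold changes lay between -0.95 (ALK7) and -0.66 (sh2), with adjusted p up to 0.00149. With the batch term the ALK7-DN value was -0.50 (adjusted p = 0.124).

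Of the subunits that take part in laminin and collagen receptors, Itga6 rose in 4 lines. It was at 68.6, 71.0 and 69.0 against 115, 132 and 117 CPM in control, 76.3, 78.1 and 77.8 against 116, 116 and 125 in ALK7, and 68.6, 75 and 71.8 against 92.6, 93.6 and 98.5 in ALK7-DN. In sh2 it went from 74.8, 77.0 and 82.2 to 102, 105 and 109 CPM. In sh1/2 the groups overlapped, at 120, 99.9 and 121 against 120, 116 and 112 CPM, a log2 difference of 0.03 (adjusted p = 0.745). Without the 3 GC-skewed libraries it was 0.22, measured against the 1 library left with DOX alone. With GC correction, which keeps all libraries, edgeR called Itga6 higher in sh1/2, by 0.143 (adjusted p = 0.0054). With the replicate block added, the value was 0.145 (adjusted p = 0.0054). The levels with DOX alone in sh1/2 were thus near those that control cells reached with activin B.

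Itgb1 differed little with activin B. Its 30 libraries lay between 375 and 640 CPM, and only sh1/2 was called, with 633, 494 and 640 against 479, 440 and 449 CPM (-0.37, adjusted p = 0.000593). Without the 3 GC-skewed libraries that value was -0.12 (adjusted p = 0.334). In ALK7 the difference was -0.19 with an adjusted p of 0.0612, and 0.0139 with the replicate block. After GC correction it was -0.17 in sh1/2 and between -0.15 and -0.14 in the other 4 lines, called in all 5.

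Itga1, an alpha subunit of collagen receptors, rose in all 5 lines by 0.97 to 1.93, from 0.0899 to 0.673 CPM with DOX alone to 0.439 to 1.70 with activin B. The sh1/2 value of 1.00 had an adjusted p of 0.106 without the 4 libraries with high Thbs1. That call also ended without replicate 2 with DOX alone (adjusted p = 0.0765) and with only the groups compared (adjusted p = 0.0876). The control call of Itga1 (0.97) ended without replicate 2 with DOX alone (adjusted p = 0.0892) and with only the groups compared (adjusted p = 0.0873). Itga2, the other main collagen-binding subunit, fell in ALK7 (-0.51 ± 0.14, adjusted p = 0.00926) and sh1/2 (-0.70, adjusted p = 0.000766), and the latter was -0.40 (adjusted p = 0.244) without the 3 GC-skewed libraries. Itgb7, a subunit best known from lymphocytes, rose by 1.06 to 1.79 in the 5 lines, from 0.245 to 1.24 CPM to 0.557 to 3.49. Leukocyte markers summed to 1.92 to 4.55 CPM over 10 genes, of which Cd68 alone had a mean of at least 1 CPM, and their part in these values was not tested. In control the Itgb7 groups overlapped, and its call ended without replicate 3 with activin B (adjusted p = 0.0896) or replicate 3 with DOX alone (adjusted p = 0.0522), and with only the groups compared (adjusted p = 0.129). With the batch term the Itgb7 value in ALK7-DN went from 1.26 to 0.73 (adjusted p = 0.230). Itga4, a partner of Itgb7, fell in ALK7 (-0.48, adjusted p = 0.0481), a call that ended on leaving out any of 5 libraries, and its exons share 1124 bases with Cerkl on the opposite strand. Itga2b fell in sh2 (-0.70, adjusted p = 0.0418), with adjusted p between 0.0933 and 0.166 on leaving out any of 4 libraries.

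Among the proteases, 3 to 6 of the 11 ADAMTS and ADAMTSL genes and 1 or 2 of the 6 MMPs rose in each line. That is 27.3% to 54.5% and 16.7% to 33.3% of them, against 8.48% to 17.5% of all genes called higher, and with 6 genes 1 call is 16.7%. The one that fell in any line was Adamts20, in ALK7 (-0.71, adjusted p = 0.0171). Adamts6 (ENSMUSG00000046169, chr13:104287835-104496695, plus strand), a protease gene linked to heart development, was at 1.30, 1.43 and 0.972 CPM in control with DOX alone and 9.97, 11.1 and 9.77 with activin B. ALK7 had 2.01, 1.75 and 1.38 against 13, 13.7 and 15 CPM, ALK7-DN 1.14, 1.59 and 1.43 against 7.19, 7.64 and 8.44, and sh2 1.13, 1.68 and 1.26 against 9.40, 9.74 and 8.34. In sh1/2 it started higher and ended lower, at 2.39, 2.52 and 2.99 against 7.57, 7.90 and 7.64 CPM. The 15 libraries with activin B all lay above the 15 without. The fold changes were 8.27, 8.09, 5.60, 6.70 and 2.94 in the usual order of lines, with adjusted p up to 6.74e-09.

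Adamts7 (ENSMUSG00000032363, chr9:90163069-90208071, plus strand), a protease that cleaves cartilage and vessel wall proteins, had a low starting level and a larger fold. Control libraries went from 0.240, 0.105 and 0.254 to 1.83, 1.07 and 1.38 CPM, and those labelled ALK7 from 0.118, 0.0700 and 0.197 to 4.46, 4.14 and 3.63. In sh1/2 they went from 0.108, 0.0934 and 0.107 to 0.650, 0.754 and 0.774 CPM. The log2 fold changes were 2.87, 4.96, 3.65, 4.36 and 2.78 in the order of lines, and no line had overlapping groups. Its exons share 122 bases with Tbc1d2b on the opposite strand.

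Among the other members of the family, Adamts17 rose in 4 lines (0.75 to 1.29, not called in sh2), Adamtsl2, whose protein binds fibrillin-rich matrix, in 4 lines (0.82 to 1.97, not called in control) and Adamts10 in ALK7 (0.81, adjusted p = 0.00142) and sh1/2 (0.84, adjusted p = 0.00105). The Adamts10 value in sh1/2 was 0.55 (adjusted p = 0.201) without the 3 GC-skewed libraries. Adamtsl2 in ALK7 went from 0.908, 0.805 and 1.06 to 3.57, 3.63 and 3.67 CPM.

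Mmp11 (stromelysin-3), which in tumours is usually a product of fibroblasts, was the one MMP that rose in all lines. Its control libraries went from 5.19, 4.88 and 3.93 to 8.0, 7.24 and 7.65 CPM, those of ALK7 from 5.53, 6.44 and 5.78 to 10.6, 12.3 and 11.4, and those of sh1/2 from 2.68, 3.86 and 2.46 to 5.30, 6.03 and 5.45. The groups did not overlap in any line, and the log2 fold changes were 0.68 to 0.95. Without the 3 GC-skewed libraries the sh1/2 value of 0.88 was 0.54 (adjusted p = 0.127), and with the batch term the ALK7-DN value of 0.68 was 0.51 (adjusted p = 0.162). Mmp11 shares 155 exon bases with Chchd10 on the opposite strand (23.3 CPM). Mmp24, the most abundant MMP, was at 15 to 32.5 CPM and was called in sh1/2 alone (0.33, adjusted p = 0.0176), a value that was -0.030 (adjusted p = 0.839) after GC correction. In ALK7 it was 0.24 with an adjusted p of 0.1, and 0.0274 with the replicate block, and 637 of its exon bases overlap BC029722 (53.2 CPM).

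Of the inhibitors, Timp2 was the one with a substantial level, 4.92 to 15.8 CPM. It rose in ALK7, from 12.8, 11.5 and 11.2 to 15.8, 15.8 and 14.2 CPM (0.37 ± 0.10, adjusted p = 0.00908, and 0.0510 without replicate 3 with DOX alone). In sh1/2 the difference was 0.25 with an adjusted p of 0.0731, and 0.0135 with the replicate block. In the other 3 lines it lay between -0.07 and 0.10. Timp3 was called in no line.

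Genes that work with the members were called in shares that differed by list and line, and the shares of all genes tested were 20.3% in control, 25.3% in ALK7, 16.1% in ALK7-DN, 19.6% in sh2 and 36.6% in sh1/2. Of 26 other tested genes of basement membrane and matrix, 4 rose and 3 fell in control (26.9%), 6 and 4 in ALK7 (38.5%), 3 and 3 in ALK7-DN (23.1%), 3 and 2 in sh2 (19.2%) and 5 and 2 in sh1/2 (26.9%). Fras1, a basement membrane protein of epithelia, rose in each, by 0.93 to 1.24, from 47.3 ± 4.06 to 95.5 ± 10.7 CPM (SD, n = 3) in control. Of 25 genes that modify, fold or crosslink collagen, 2 rose and 6 fell in control (32%), 3 and 8 in ALK7 (44%), 1 and 4 in ALK7-DN (20%), 2 and 5 in sh2 (28%) and 6 and 5 in sh1/2 (44%). P4hb, a subunit of the collagen prolyl hydroxylase and a general disulphide isomerase, fell in all 5 lines, by 0.23 (sh1/2) to 0.63 (ALK7). Of 32 genes of the integrin adhesion complex, 5 rose and 3 fell in control and in sh2 (25% each), 7 and 3 in ALK7 (31.2%), 5 and 2 in ALK7-DN (21.9%) and 14 and 8 in sh1/2 (68.8%). Tns3, an adaptor that binds integrin tails, fell in all 5, from 178 ± 12 to 113 ± 13.1 CPM (SD, n = 3) in control. Of 22 other protease regulators, 1 rose and 7 fell in control (36.4%), 1 and 5 in ALK7 and in sh2 (27.3% each), 1 and 6 in ALK7-DN (31.8%) and 2 and 7 in sh1/2 (40.9%). Plat (tissue plasminogen activator) fell in every line, by 0.73 to 1.20.

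The lines themselves differed before activin B was added, most of all sh1/2. With DOX alone, 17 members were higher and 15 lower in sh1/2 than in control, against 38.0% of all genes tested (19.4% higher and 18.6% lower), and the count of 32 was 21 without the 3 GC-skewed libraries. Itgb8 was the furthest above control (1.86 ± 0.14), Itga6 was higher by 0.71, Thbs3 by 0.75 and Adamts6 by 1.08, while Lama1 fell short of control by a log2 difference of -1.0 and Timp2 by -0.95. Hairpins and backbone differ together between these lines. In the line labelled ALK7 1 member was higher and 3 lower than in control (1.98% of all genes called, 1.03% higher and 0.953% lower): Col6a3 higher by 0.43, Col6a5 (-0.30), Col5a3 (-1.20) and Col8a1 (-1.62) lower. In that labelled ALK7-DN, Lamb1 (0.70, adjusted p = 0.00781) and Col6a3 (0.33, adjusted p = 0.0244) were higher (0.966% of all genes called, 0.378% higher and 0.589% lower). The Col6a3 call ended on leaving out any of 5 of the 6 libraries compared, and that of Lamb1 (adjusted p = 0.0555) without replicate 3 of ALK7-DN. These comparisons share the control libraries.

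The sh2 line can be set against control within 1 batch only with activin B. There 5 members were higher and 10 lower (9.23% of all genes called, 3.06% higher and 6.18% lower). Lama1 had the largest difference of the well-expressed members, at 3.29, 3.39 and 3.99 CPM in sh2 against 10.8, 9.26 and 10.6 in control (-1.52 ± 0.12). Adamtsl2 (-1.50), Timp2 (-0.66) and Col6a5 (-0.37) were lower as well, and Lama5 was higher (0.83, adjusted p = 0.0130, 0.0886 without replicate 2 of control and 0.0517 without replicate 3 of sh2). With DOX alone, the batch 2 libraries of sh2 had Lama1 at 2.38, 1.90 and 2.02 CPM, also under the 4.42 to 5.71 of control.

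Whether the lines answered activin B differently was tested by the difference of the responses. For ALK7, ALK7-DN and sh2 against control, edgeR called 0 of the 78 members (of all genes tested, 0.0256% were called in ALK7, 0.0192% higher and 0.0064% lower, 0% in ALK7-DN and 0.0128% in sh2), and 17, 4 and 4 members had an unadjusted p under 0.05 (21.8%, 5.13% and 5.13%, against 10.2%, 2.19% and 3.37% of all genes). DESeq2 called 1, 0 and 0 members, for which the shares of all genes are not given here. With the replicate block 5 members were called for ALK7, all higher (1.31% of all genes called, 1.04% higher and 0.275% lower), and 0 for ALK7-DN and sh2 (0.0064% and 0.0128% of all genes, all of them lower). The smallest p among them was that of Lamb1 in ALK7-DN, a difference of -0.84 ± 0.17 with an adjusted p of 0.308. Adamts7 in ALK7 had a difference of 2.09 ± 0.53 with an adjusted p of 0.232. For sh1/2 against control, 7 responses were called higher and 6 lower, against 17.7% of all genes (8.49% higher and 9.22% lower), and with the block 14 and 8 (38.1% of all genes, 19.5% higher and 18.6% lower). The response of Smad7 was also smaller in sh1/2, by a log2 difference of -0.59 (adjusted p = 0.0313). All 4 comparisons share the control libraries.

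The members with the smallest p in sh1/2 were Itga6, Adamts6, Col6a3, Lamb1 and Spon2. The response of Itga6 was smaller than in control by a log2 difference of -0.78 ± 0.09 (adjusted p = 1.91e-05), that of Adamts6 by -1.49 ± 0.21 (0.000194), that of Lamb1 by -0.97 ± 0.18 (0.0024) and that of Spon2 by -1.12 ± 0.26 (0.0122). Col6a3, which fell in control, had a response 0.72 ± 0.10 higher (adjusted p = 0.000268). Without the 3 GC-skewed libraries, which leaves 1 library of sh1/2 with DOX alone, these 5 differences were -0.52, -1.38, -1.15, -1.64 and 0.61. The same 5 were called without the 4 libraries with high Thbs1. The other 8, Col4a1, Col8a1, Col8a2, Itga3, Itgav, Itgb5, Mmp24 and Adamts10, had adjusted p from 0.372 upward there. When only the 4 groups compared were fitted, Lamb1 (adjusted p = 0.0574) and Spon2 (adjusted p = 0.187) were no longer called. Leaving out 1 library at a time gave 5 to 27 members, the lowest count on leaving out each of 6 different libraries and the highest without replicate 2 of sh1/2 with DOX alone.

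**Figure D5:**
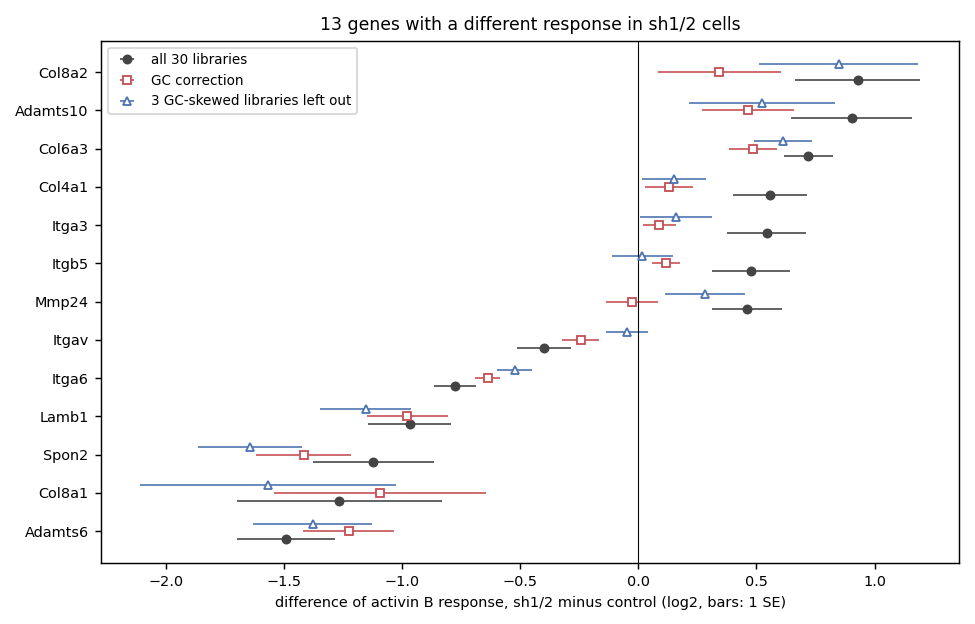
Difference of the log2 response to activin B, sh1/2 minus control, for the 13 members called; filled circles are all 30 libraries, squares the same after GC correction, triangles the fit without the 3 GC-skewed libraries, and bars 1 SE. Adamts6, Spon2, Lamb1, Itga6 and Col6a3 stay clear of 0 in all 3 fits, while Itgb5 moves from 0.48 to 0.12 and 0.02. The triangles rest on 1 library of sh1/2 with DOX alone.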

How the data were processed

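RNA from 30 wells of βTC3 cells was sequenced from polyadenylated, strand-marked libraries (TruSeq stranded mRNA kit, per the labels' protocols). The authors deposited raw read counts per gene. Per the submitters' processing notes, tools used were bcl2fastq 2.17, cutadapt 1.4.2, HISAT2 and featureCounts 1.4.4, with build mm10; the strand setting and the treatment of multi-mapping reads are not given in the sources used here. The 30 sample files held the same counts as the series table. No pair of replicates agreed within sampling noise (lowest chi-square per degree of freedom 8.23).

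Counts were tested with edgeR 4.0.16 in R 4.3.3 (filterByExpr, TMM, quasi-likelihood F test, 10 group means, 30 libraries) over 15627 genes and 13 contrasts, with Benjamini-Hochberg adjustment and a threshold of 0.05. Standard errors were derived from the test, as the absolute log2 fold change divided by the square root of its F statistic. The procedure was tested on simulated data. Positions are from GENCODE on GRCm38 (mm10), promoters from RefSeq on GRCm38.p6. Members and lists were chosen with earlier results of these data known. Named genes were members called in 1 direction in all lines, the 2 most abundant of each family, those with the largest called changes in each comparison, and those with the smallest p in comparisons of lines; other genes named were chosen after their values were seen, namely Spon1, Lamb3, Col8a1, Col27a1, Col6a6, Adamts17, Adamts20, Itga2b, Thbs1, Adamts1, Timp3, Col5a3, Col8a2, Itga3, and the genes named for their level alone (Col4a2, Col1a1, Col11a2 and those under the filter). The values of 1 member are not reported here.

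Replicate numbers were checked for pairing: wells of the same number deviated together with r of 0.0794 to 0.329 in 15 pairs, 13 of them over 0.1. The part of the libraries' GC skew in these r was not tested. All 3 pairs passed 0.1 in ALK7, ALK7-DN and sh1/2, for which blocked values are given where a call changed. Blocked values are also given in control or sh2 for Col22a1, Lamc1 and some counts of members. Alternatives were DESeq2 1.42.0, its size factors, no filter, only the groups compared, the replicate block, GC correction (a spline with 5 degrees of freedom per library), a batch term from the hairpin lines, and leaving out single libraries. The batch term was fitted with 1 activin B response shared by sh2 and sh1/2. A difference between the responses of these lines therefore enters it. The fits without 4 libraries with high Thbs1 and with GC correction but no block were added after seeing the data.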

Additional observations from a re-analysis of the deposited data

Results flagged for a closer look

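For 5 members the activin B response differed between sh1/2 and control by the test of the difference itself (edgeR, Benjamini-Hochberg). On the log2 scale, sh1/2 minus control, it was -1.49 for Adamts6 (adjusted p = 0.000194), -1.12 for Spon2 (0.0122), -0.97 for Lamb1 (0.0024), -0.78 for Itga6 (1.91e-05) and 0.72 for Col6a3 (0.000268). With DOX alone, Adamts6, Lamb1 and Itga6 were already higher in sh1/2 than in control, by 1.08, 0.51 and 0.71, and Col6a3 was lower (-0.21). The beta cell markers summed to a mean of 16489 CPM in sh1/2 with DOX alone and 23790 in control. Most of the gap was in Ins2 (6035 against 10309 CPM) and Iapp (2497 against 4045). Chgb (812 against 323 CPM), Isl1, Neurod1 and Slc2a2 had higher means in sh1/2, and the other markers lower ones. The part of these in the differences was not tested.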

How the results depend on the processing

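Of 159 named values, 125 were called. Over 2441 pairs of a value and an alternative setting, 2281 kept direction and side of the threshold, 112 lost the call, 45 gained one and 3 reversed: Itgb5 in ALK7-DN (0.40) was -0.043 with the batch term, and Mmp24 in sh1/2 (0.33) was -0.023 with GC correction and the replicate block and -0.030 with GC correction alone.

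The count of members called in sh1/2 with activin B (28) was 14 with only the groups compared, 15 without the 3 GC-skewed libraries and 18 without the 4 libraries with high Thbs1. For differences of response, ALK7 (0) had 5 with the replicate block, 3 with GC correction and the block and 1 with DESeq2, and ALK7-DN and sh2 (0 each) had 1 and 1 with GC correction, with or without the block. The sh1/2 difference (13) had 8 without the filter, 3 with only the groups compared, 22 with the replicate block, 7 with GC correction and the block, and 5 each with GC correction alone, without the 3 GC-skewed libraries and without the 4 with high Thbs1. With DOX alone against control, ALK7 (4) had 2 with only the groups compared, 10 with GC correction and the block and 7 with GC correction alone. ALK7-DN (2) had 1 without the filter, 0 with only the groups compared, 4 without the GC-skewed libraries and 1 without those with high Thbs1, and sh1/2 (32) had 17 with only the groups compared and 21 without the GC-skewed libraries. The sh2 line against control with activin B (15) had 7 without the filter, 4 with only the groups compared, 24 with GC correction and the block and 9 without the 4 libraries. Without the GC-skewed libraries, sh1/2 with DOX alone keeps 1 library, and those counts in sh1/2 carry that limit. Apart from those given above for the replicate block, the shares of all genes called under these settings are not given here. A change in a count may thus be one shared by all genes. The cause was not tested.

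Leaving out 1 library at a time gave 20 to 24 members in control, 30 to 38 in ALK7, 18 to 24 in ALK7-DN, 21 to 25 in sh2 and 22 to 35 in sh1/2, and 0 to 0 for the differences in ALK7, ALK7-DN and sh2. It gave 5 to 27 for the sh1/2 difference, 2 to 4 for ALK7, 0 to 2 for ALK7-DN and 27 to 34 for sh1/2 with DOX alone, and 7 to 13 for sh2 against control. With the replicate block, control had 28 and sh2 31 members called with activin B; in these 2 lines the numbers are not shown to pair the wells, although each of the 30 libraries correlated best with its own number. With the batch term, which assumes 1 response shared by sh2 and sh1/2, ALK7-DN had 18 members called in place of 25. The shares of all genes are not given for these counts either. Members under about 1 CPM rest on few reads, and the depth limits what can be called there.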
